A study of Arabidopsis thaliana with 163 samples.

Results

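In Arabidopsis seedlings, 440 H3K9ac domains did not overlap any called domain of H3K4me3, the methyl mark that accompanies acetylation at most active gene starts. They were selected on the domain lists themselves. A domain of the first PHILO H3K9ac library had to be touched by 1 bp or more in the lists of the second and the third, and to overlap no row of the pooled H3K4me3 list. Of 14969 domains on the 5 nuclear chromosomes in the first list, 14268 were repeated in the other lists. The 440 are the repeated domains without H3K4me3, and the 13828 repeated domains that overlap H3K4me3 are set beside them. Since H3K9ac in these libraries and the H3K4me3 list chose the domains, both are given as a description only.

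PHILO is a ChIP-seq procedure for many small plant samples in parallel, and the series holds 163 samples in 56 groups. The values used here come from untreated 10-day-old Col-0 (wild-type) whole seedlings: H3K9ac in 3 PHILO and 2 regular ChIP-seq libraries, with pooled PHILO lists of H3K4me3, H3K36me3 and H3K27me3. The effect of jasmonate (JA) comes from pooled lists of Col-0 seedlings exposed to gaseous methyl jasmonate for 2 h against untreated controls, in a large-scale experiment and in a separate time course. Binding of MYC2, the master transcription factor of the JA response, comes from a pooled list of 3464 summits made with a line that carries a FLAG-tagged MYC2 under its own promoter in the *myc2* mutant. By the study's methods MYC2 binding after 2 h JA was set against control seedlings of that line, so the summits do not describe the untreated state of the marks, and the file itself names neither side. The pooled lists have no replicate error. The titles name an IgG library and the MYC2 libraries, but their antibody label reads anti-H3K9ac and their genotype and treatment labels untreated Col-0. The titles and methods were followed, and folds over IgG and MYC2 values rest on them. In whole seedlings, a mark present in few cells and a mark that is weak in all cells cannot be told apart.

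Acetylation of histone H3 at lysine 9 is placed by histone acetyltransferases around the starts of active genes, where the same nucleosomes are usually trimethylated at lysine 4. H3K36me3 covers the bodies of transcribed genes, whereas H3K27me3 is placed by Polycomb repressive complexes over genes that are kept silent until a tissue, season or signal calls for them. In the JA pathway, JAZ proteins hold MYC2 and its relatives inactive until the hormone triggers JAZ degradation, and MYC2 then acts at promoters through the G-box, CACGTG.

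The tissue label was checked against marker genes. All 12 photosynthesis genes examined, markers of leaf tissue, touched a repeated H3K9ac domain, against 2 of 9 seed storage genes. Counts in domains were 13807286, 9844009 and 8986137 in the PHILO libraries, and 11606919 and 10705391 in the regular libraries. The IgG counts were equal wherever lists shared coordinates, so the same control counts stand behind the H3K9ac values of every library. No domain without H3K4me3 resembled an organelle genome (0 of 440).

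MYC2 summits lay in 19 of the 440 domains, and the sequence around 8 of their 23 summits is shown first. Whether these windows are tied to a JA change of the domains was not tested. The windows are 61 bp centred on the summit, read from the forward strand of the RefSeq TAIR10.1 genome, with each G-box in capitals. JAZ7 and AT5G21960 were called gains in both JA experiments. RRTF1 and Rap2.6L were called a gain in the large-scale experiment and a loss in the time course. Rap2.6L had the highest MYC2 fold of all members and no G-box in its window. AT1G31710, ABCG42, AT3G08990 and DPA4 complete the set of windows with a G-box, the last pair chosen after its values were seen.
JAZ7, chr2:14572978-14573038: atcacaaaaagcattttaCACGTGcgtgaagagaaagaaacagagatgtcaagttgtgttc
AT5G21960, chr5:7258868-7258928: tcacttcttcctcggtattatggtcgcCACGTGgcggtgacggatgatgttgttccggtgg
RRTF1, chr4:16451722-16451782: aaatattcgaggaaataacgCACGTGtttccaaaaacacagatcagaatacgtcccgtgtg
AT1G31710, chr1:11353930-11353990: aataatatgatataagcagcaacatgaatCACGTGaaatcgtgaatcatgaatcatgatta
ABCG42, chr4:8687739-8687799: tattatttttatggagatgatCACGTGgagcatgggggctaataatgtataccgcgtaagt
AT3G08990, chr3:2742836-2742896: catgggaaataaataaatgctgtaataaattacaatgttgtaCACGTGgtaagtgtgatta
DPA4, chr5:1892938-1892998: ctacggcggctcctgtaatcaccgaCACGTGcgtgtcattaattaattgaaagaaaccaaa
Rap2.6L, chr5:4272978-4273038: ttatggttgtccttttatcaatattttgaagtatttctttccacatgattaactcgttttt

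The domains without H3K4me3 were weaker in H3K9ac than the domains with it, in every library. Enrichment is given as the log2 ratio of ChIP over IgG counts after scaling to the totals of both. The median over the 440 domains was 1.13, 1.19 and 1.21 in the PHILO libraries, against 1.95, 2.01 and 2.02 over the 13828 domains with H3K4me3. The mean of these medians was 1.18 ± 0.042 without and 1.99 ± 0.041 with H3K4me3 (SD, n = 3 libraries). For single domains, the SD over the 3 libraries had a median of 0.14 without and 0.11 with H3K4me3 on the same log2 scale. IgG counts were close, at a median of 71.7 per kb without and 74.3 per kb with H3K4me3, whereas ChIP counts in the first PHILO library had medians of 311 per kb without and 562 per kb with H3K4me3. The width ranged from 200 to 6800 bp, with a median of 1000 bp without and 1200 bp with H3K4me3. In the first library, 277 of the 440 domains (63.0%) reached a log2 fold of 1, against 97.7% of those with H3K4me3.

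**Figure D1:**
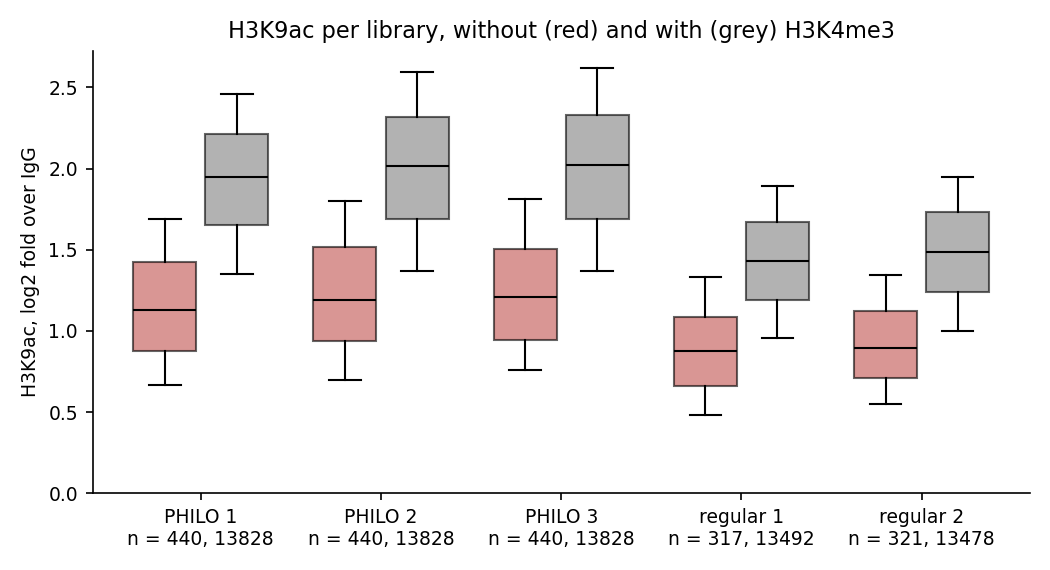
H3K9ac as log2 fold over IgG in 3 PHILO and 2 regular libraries, for domains without (red) and with (grey) H3K4me3; boxes show the median and quartiles, whiskers the 10th and 90th percentiles, and n below each library gives both groups. In each of the 5 libraries the median without H3K4me3 lies below the lower quartile with H3K4me3.

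The regular libraries had no part in the selection. Both regular lists touched 288 of the 440 domains (65.5%, 95% Wilson interval 60.9 to 69.7), against 96.9% of the domains with H3K4me3, and neither list touched 90 (20.5%), against 258 (1.87%). Intervals cover counting error only. Where a regular domain was present, its median log2 fold was 0.87 and 0.90 without H3K4me3, against 1.43 and 1.48 with it. In the median, PHILO folds over IgG were thus higher, with a mean of medians of 1.18 in PHILO and 0.89 in regular libraries without H3K4me3, and 1.99 and 1.46 with it. The regular medians leave out domains that the regular lists missed. Over the 288 domains found in both regular lists, the medians were 1.13, 1.21 and 1.21 in PHILO libraries, and 0.88 and 0.92 in regular libraries. A gene with PHILO folds above its regular folds therefore follows this general offset, and its order under another scaling is known only for the 15 domains tested further on. Domains missed by both regular lists were rich in G and C, with a median GC content of 43.3% without (n = 90) and 42.2% with H3K4me3 (n = 258). In domains found in both regular lists the median was 37.9% without (n = 288) and 38.8% with H3K4me3 (n = 13400). The part that base composition plays in the missing domains was not tested.

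**Figure D2:**
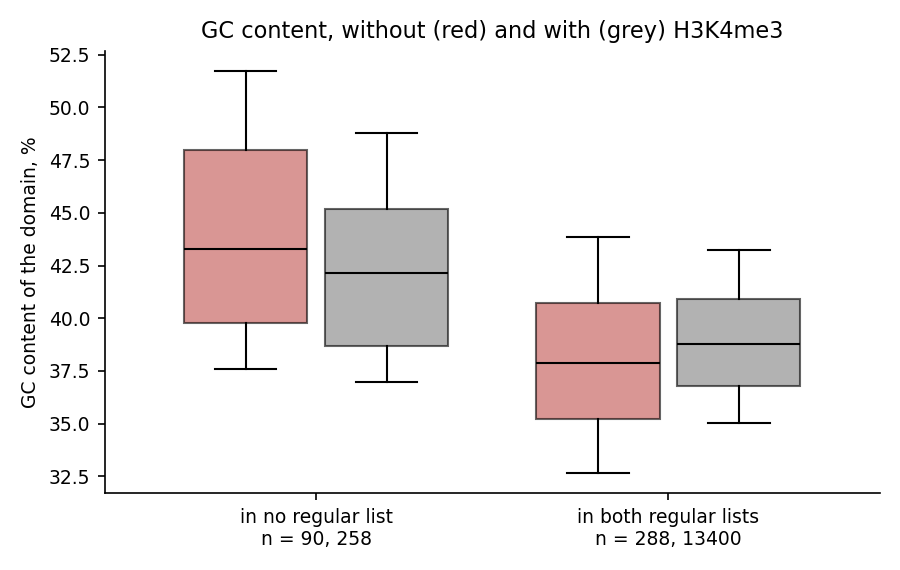
GC content in percent of domains without (red) and with (grey) H3K4me3 that were found in no regular list or in both; boxes show the median and quartiles, whiskers the 10th and 90th percentiles. The domains in no regular list lie higher in both colours, with medians of 43.3% and 42.2%.

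Among the 10 members with the highest H3K9ac in the regular libraries, CPK2, a calcium-dependent protein kinase, had PHILO and regular values in the same range. Its log2 fold over IgG at chr3:3334001-3334800 was 1.69, 1.92 and 1.70 in the PHILO libraries, and 1.77 and 1.75 in the regular libraries. NPC5, a non-specific phospholipase C, had 1.94, 1.80 and 2.05 in PHILO libraries, and 1.26 and 1.92 in regular libraries. The libraries of both methods overlapped at NPC5 too. The long noncoding RNA gene AT3G05605 had 2.05, 1.92 and 2.12 in PHILO libraries, and 1.85 and 1.59 in regular libraries. Every PHILO value was above both regular ones, in the direction of the general offset. PMZ, annotated as a zinc finger protein, had 1.72, 1.69 and 2.11 in PHILO libraries, and 1.52 and 1.63 in regular libraries, with the same order. The others were AT5G24200, AT4G31960, UMAMIT43-psi, AT2G45040, AT3G11860 and a domain nearest to AT2G06605 that overlapped no gene. At AT4G31960 the lists drew different boundaries, 1600 bp in the first PHILO library with log2 folds of 0.75, 0.67 and 0.61, and 400 bp in the regular libraries with 1.75 and 1.67.

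Counts of PHILO and regular libraries could be set side by side only where all 5 lists drew the same domain. This held for 1167 domains, of which 15 had no H3K4me3. The counts were fitted with edgeR's quasi-likelihood test over all 1167, adjusted by Benjamini-Hochberg, and TMM scaling makes each change relative to the bulk of these domains. Of the 15, 2 were higher in PHILO and 7 were lower at an adjusted p under 0.05, where 12.8% of all tested domains were called higher and 10.9% lower. These calls are a description, since the PHILO counts also chose the domains and all 1167 had to be called by both methods. The median log2 change, PHILO over regular, was −0.24 over the 15 and −0.01 over all 1167. When libraries were instead scaled to their total over IgG, nearly all domains shifted upward (median 0.57), 13 of the 15 were called, all higher, and their median was 0.34.

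The glycine-rich protein gene AT3G44950 had the larger change of the domains higher in PHILO. Its counts were 454, 360 and 285 in the PHILO libraries, against 244 and 239 in the regular libraries, a log2 change of 0.57 ± 0.087 (SE). AT1G79480 was the other, at 0.25. AT4G15740, annotated as a calcium-dependent lipid-binding protein, had 222, 155 and 133 counts in PHILO libraries, against 250 and 228 in regular libraries, a log2 change of −0.53 ± 0.10 (SE). Every PHILO count of AT4G15740 was below both regular counts before scaling, and the same held after scaling. AT5G24200, annotated as a hydrolase, was also lower in PHILO, at −0.39, although its folds over IgG were 2.03, 1.91 and 1.79 in PHILO libraries, and 1.65 and 1.84 in regular libraries. The other 5 were AT5G23480, AT3G23450, AT1G11540, the cellulose synthase-like gene CSLG1 and the pectin lyase-like gene AT3G15720, between −0.38 and −0.27. The regular libraries differed by less than the sampling noise (chi-square per degree of freedom 0.901), whereas PHILO pairs gave 1.45 to 1.94. They were kept as 2 samples, since the labels give them as separate and no other pair of that group exists. With the regular pair counted as 1 sample, 3 calls were left, AT3G44950, AT4G15740 and AT5G24200. With DESeq2 the count was also 3. Relative to IgG totals AT4G15740 stood at 0.052 and AT5G24200 at 0.18, so their direction depends on the scaling.

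H3K27me3, the Polycomb mark, overlapped 205 of the 440 domains without H3K4me3 (46.6%, 95% Wilson interval 42.0 to 51.3), against 11.5% of the domains with it. H3K36me3, the mark of transcribed gene bodies, had the opposite order, with 46 (10.5%, 7.93 to 13.7) against 85.8%. Neither mark was found in 194 domains (44.1%), against 7.30%, and both were found in 5 (1.14%), against 634 (4.58%). These 5 were AT1G09470, NFC5, AT5G08360, BCB and AT5G53150. In the 205 domains with H3K27me3 the mark typically covered the whole domain, with a median of 100% of its length and a median log2 fold of 1.94, against 1.77 in domains with H3K4me3.

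The shares of both marks also differed among weak domains. Below a log2 fold of 1.5 in the first PHILO library, a limit set after the data were seen, 42 of 353 domains without H3K4me3 had H3K36me3 (11.9%), against 64.3% of 2240 domains with it. In the same range 44.5% without H3K4me3 had H3K27me3, against 27.9%. Near the limit of the rule, the closest H3K4me3 domain was 600 bp away for 3 members, and 63 lay within 1000 bp, of which 34.9% had H3K27me3. Of the 50 domains over 5000 bp from H3K4me3, 64% had H3K27me3. On the other side of the rule, 7 domains overlapped H3K4me3 by only 200 bp, of which 0% had H3K27me3 and 28.6% had H3K36me3. Another 126 domains overlapped an H3K4me3 domain with a log2 fold under 1. Of those, 48.4% had H3K27me3 and 19.8% had H3K36me3, with a median H3K9ac log2 fold of 1.04.

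**Figure D3:**
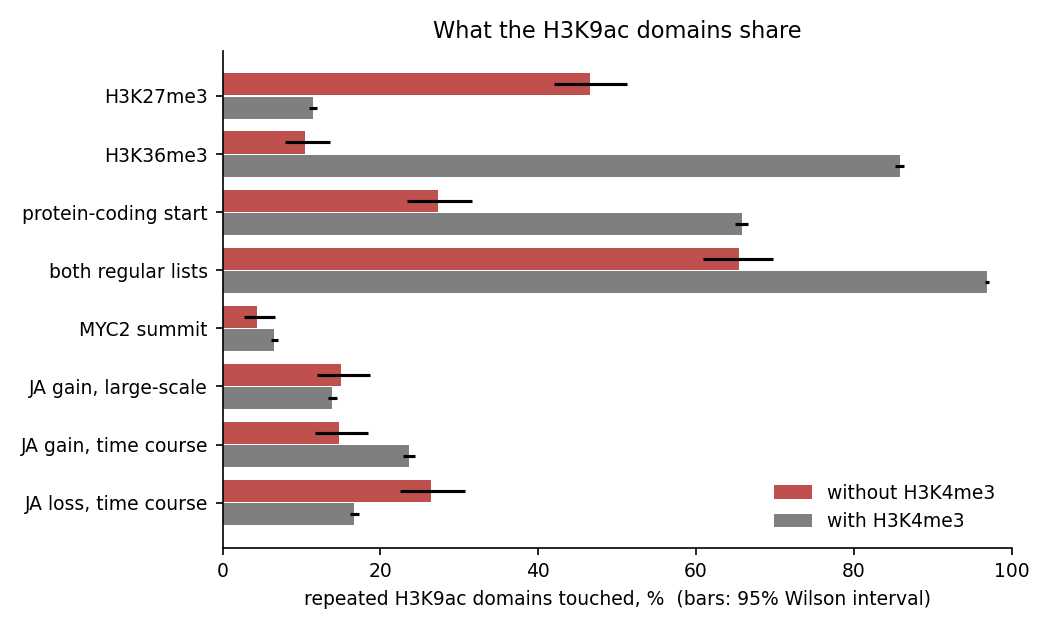
Percent of repeated H3K9ac domains that overlap each feature, for 440 domains without (red) and 13828 with (grey) H3K4me3, with 95% Wilson intervals as bars. H3K27me3 (46.6% against 11.5%) and H3K36me3 (10.5% against 85.8%) stand in opposite order.

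The domains lay inside genes but often missed the gene start. A protein-coding transcription start fell in 120 of the 440 domains (27.3%, 95% Wilson interval 23.3 to 31.6), against 65.8% with H3K4me3. Another 274 (62.3%) lay in a protein-coding gene without its start, against 32.2%. Of the remainder, 14 lay within 1000 bp upstream of a start, 23 in another kind of gene and 9 in no gene. Only the median position of the centre relative to the nearest start was similar. It was 456 bp into the gene (interquartile range 28 to 788) without and 470.5 bp (288 to 696) with H3K4me3. The spread was wider without H3K4me3, with 10th and 90th percentiles of −1743 and 2320 bp, against −148 and 1046 bp. At 400 bp into the gene, 61.1% of domains without and 94.5% with H3K4me3 covered the position. Within the 440, the share covering this position was 68.8% with H3K27me3 and 54.5% without it. Of the 46 domains with H3K36me3, 37 (80.4%) lay in a gene without its start, against 27.8% of the 11867 domains with H3K36me3 and H3K4me3.

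**Figure D4:**
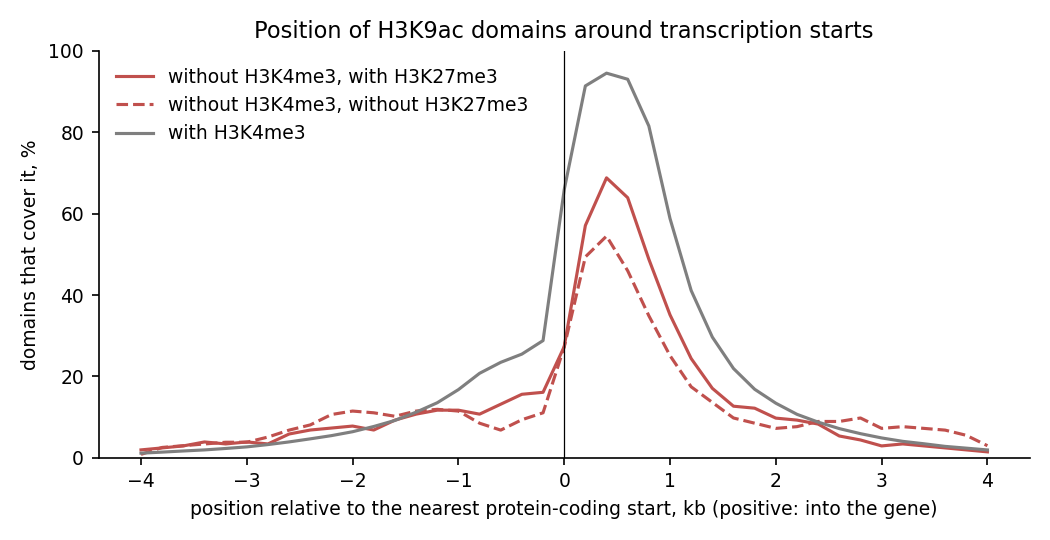
Percent of domains that cover each position around the nearest protein-coding transcription start, in kb with positive values into the gene, for domains without H3K4me3 (red; solid with and dashed without H3K27me3) and with H3K4me3 (grey). All 3 lines peak 400 bp into the gene, at 68.8%, 54.5% and 94.5%.

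The leading gene, which is the gene with the largest overlap, was protein-coding for 390 of the 440 domains (88.6%), against 96.8% with H3K4me3. Long noncoding RNA genes led 23 (5.23%), against 1.12%. Pseudogenes led 6 and transcribed pseudogenes 5. Of these 390 domains, led by 388 genes, 88 (22.6%) had a leading gene with H3K4me3 elsewhere in the gene, and 302 had one without it. Where the domain had H3K27me3, the leading gene had H3K4me3 elsewhere for 16 of 179 domains (8.94%), whereas without H3K27me3 it was 72 of 211 (34.1%). AGO3, which encodes an Argonaute protein, and AT2G43140 each led 2 of the domains. In PHILO list 1, the widest domains were at the noncoding gene AT3G00450 (6800 bp) and at AT5G08635 (5200 bp). AT1G37120 (4000 bp, no gene overlapped) and MLO12 (3800 bp), a relative of powdery mildew susceptibility genes, came next. PHILO lists 2 and 3 were narrower, with 2400 and 600 bp at AT3G00450, and 3200 and 1000 bp at AT5G08635. They had 1400 and 600 bp at AT1G37120, and 2000 and 800 bp at MLO12. At the same places the regular lists had 3400 to 7000 bp. The genes AT3G00450 and AT5G08635 overlapped only 319 and 476 bp of their domains. The NADPH oxidase gene RBOH F followed at 3400 bp in PHILO list 1, level with AT5G54710, AT2G16750 and AT5G44572.

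Of all repeated domains 3.08% lacked H3K4me3, a share per domain that stands beside the shares per gene here, since a gene can touch several domains. Of 40 JA pathway genes 32 touched a repeated H3K9ac domain, and 2 of the 32 (6.25%), JAZ7 and CYP94B3, touched one without H3K4me3. Of 20 flowering genes 10 touched a repeated domain, and 2 of the 10 (20.0%), FLC and MAF4, touched one without H3K4me3. All 13 chromatin and transcription genes and all 12 photosynthesis genes had H3K9ac, and 0 of these had it in such a domain. Of 15 meristem and embryo genes, 0 touched a repeated domain. By family, matched on the gene symbol, cytochrome P450 genes had 6 (CYP705A26P, CYP94B2, CYP72A14, CYP71B36, CYP94B3 and CYP81F2) among 123 with a repeated domain (4.88%). The WRKY (WRKY35, WRKY13), MYB (MYB2, MYB15), receptor-like protein (RLP23, RLP38), xyloglucan endotransglucosylase (XTH18, XTH19) and microRNA (MIR169a, MIR827) genes had 2 each. ERF71, NAC036 and UGT84A1 were the members whose symbols begin with ERF, NAC and UGT. Genes of the ERF family under other symbols, such as Rap2.6L and RRTF1, are not in these counts.

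FLC is the floral repressor that Polycomb silences during winter cold. Its domain at chr5:3178801-3179600 holds the FLC start and lies mostly over the noncoding gene AT5G01675. The log2 fold of H3K9ac was 1.78, 2.16 and 1.67 in the PHILO libraries, and 1.40 and 1.50 in the regular libraries, an order that follows the general offset between the methods. H3K27me3 over the same domain had a log2 fold of 3.11. MAF4, a relative of FLC that also represses flowering, had H3K9ac of 1.62, 1.61 and 1.69 in PHILO libraries, and 1.02 and 0.93 in regular libraries, at chr5:25992201-25992800. H3K27me3 was called there as well. Neither FLC nor MAF4 was called for a JA change, and the closest H3K4me3 domain was 2600 bp from the FLC domain and 3800 bp from the MAF4 domain.

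CYP94B3 hydroxylates the active hormone JA-Ile and so helps to end the JA signal. Its domain at chr3:17975601-17976600 missed the gene start and was 10600 bp from H3K4me3. H3K9ac was 1.74, 1.71 and 1.76 in PHILO libraries, and 1.01 and 0.91 in regular libraries on the log2 scale. The PHILO values were above the regular ones, in the direction of the general offset. H3K27me3 covered the whole domain, at a log2 fold of 3.01, and the JA calls at CYP94B3 went in opposite directions in the experiments.

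The JA lists were not used by the rule. They give counts in JA-treated and control seedlings over domains that can be wider than the member they touch. In the large-scale experiment a gain after 2 h JA touched 66 of the 440 domains (15.0%, 95% Wilson interval 12.0 to 18.6), against 13.9% with H3K4me3 and 14.0% of all repeated domains. In the time course a gain touched 65 (14.8%, 11.8 to 18.4), against 23.6% with H3K4me3 and 23.3% of all. A time course loss touched 116 (26.4%, 22.5 to 30.7), against 16.7% with H3K4me3 and 17.0% of all. The large-scale share of gains was thus near the background, whereas in the time course gains were less and losses more frequent than in the background. A large-scale list of losses was not used here.

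For losses, the gap between domains without and with H3K4me3 differed with the other marks. Among domains with H3K27me3, a time course loss touched 61 of 205 (29.8%) without and 24.5% with H3K4me3. Among domains with neither H3K27me3 nor H3K36me3, it touched 24.2% without and 22.0% with H3K4me3. Among domains of at most 1000 bp the shares were 21.4% of 271 without and 7.26% with H3K4me3. For time course gains the share without H3K4me3 was lower in each of these groups. The shares were 14.6% without and 27.6% with H3K4me3 among domains with H3K27me3, and 14.9% and 23.5% among domains with neither mark. Among domains of at most 1000 bp they were 16.2% without and 22.0% with H3K4me3. The part that width, strength and the other marks play in the difference was not tested.

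The changes that were called were larger in the domains without H3K4me3. The median log2 ratio, JA over control, was 0.40 for large-scale gains without and 0.26 with H3K4me3, and 0.38 and 0.22 for time course gains. For time course losses the ratio, here control over JA, had a median of 0.45 without and 0.23 with H3K4me3. A log2 ratio of at least 0.5 was reached by 5.0% of domains without H3K4me3 for large-scale gains, against 1.68% with it, and by 4.55% for time course gains, against 1.69%. Losses of that size touched 11.1% of domains without and 1.74% with H3K4me3. Fewer reads lie in these weaker domains, and a domain with fewer reads needs a larger ratio to be called; its part in the larger ratios was not tested.

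Gains in both experiments touched 32 of the 440 domains (7.27%), against 7.32% of those with H3K4me3 and 7.32% of all repeated domains. H3K27me3 was present in 16 of the 32, near its share of 46.6% over all 440, and 16 had a large-scale log2 ratio of at least 0.5. The experiments have separate samples in the labels. The 10 with the highest large-scale ratio were AT4G05865, AT3G15720, MES9, AT5G21960, AT1G25422, FUT3, AT4G29690, HDG8, CSLG1 and JAZ7.

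JAZ7, a repressor of the JA response that the hormone itself induces, is with CYP94B3 one of the 2 listed JA pathway genes that touched a member. The domain at chr2:14573001-14573800 holds the JAZ7 start and had 336, 231 and 170 ChIP counts in PHILO libraries with 49, 49 and 38 IgG counts. Its H3K9ac log2 fold was 1.81, 1.78 and 1.81 in the PHILO libraries, and 1.23 and 1.27 in the regular libraries, again in the order of the general offset. In the large-scale experiment JAZ7 had 422 counts after 2 h JA and 267 in controls, a log2 ratio of 0.74. In the time course it had 468 counts after 2 h JA and 231 in controls, a log2 ratio of 1.03. The MYC2 summit, 22 bp upstream of the JAZ7 start, had a fold of 2.26 and a −log10 q of 27.6, and its G-box is in the JAZ7 window above. No H3K27me3 was called at JAZ7, and H3K4me3 was 2000 bp away.

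MES9, a methylesterase that acts on methylated hormones, had the largest time course ratio of the 10. Its counts were 428 after 2 h JA and 226 in controls in the large-scale experiment (log2 ratio 1.00), and 643 and 267 in the time course (1.28). In untreated seedlings its H3K9ac was low, at 0.86, 1.17 and 0.96 in PHILO libraries, and 0.53 and 0.80 in regular libraries. AT4G05865, a long noncoding RNA gene, had 262 counts after 2 h JA and 133 in controls (1.06), and 1435 and 768 in the time course (0.92). The called domains differ in width between the experiments, so that counts are compared only within each. AT5G21960, annotated as an integrase-type DNA-binding protein, the annotation's name for AP2/ERF transcription factors, had H3K9ac of 1.94, 2.31 and 2.02 in PHILO libraries and was in no regular list. Its counts were 782 after 2 h JA and 450 in controls (0.87), and 420 and 204 in the time course (1.06). H3K27me3 was present at AT5G21960 and AT4G05865, with log2 folds of 2.73 and 0.80, and both held a MYC2 summit. CSLG1 with H3K27me3 had 390 counts after 2 h JA and 243 in controls (0.76), and 741 and 329 in the time course (1.19). FUT3, a fucosyltransferase gene, had 2324 counts after 2 h JA and 1399 in controls (0.81), and 602 and 273 in the time course (1.16). The large-scale call at FUT3 ran over chr1:27968401-27977400, and the time course call at AT4G05865 over chr4:6877201-6885000. Both reach well beyond the gene. The other calls at FUT3 and AT4G05865 and those at MES9 and AT5G21960 also run past the gene, so the counts at these genes are not of the gene alone. AT3G15720 had 145 counts after 2 h JA and 75 in controls (1.03), and 216 and 129 in the time course (0.76).

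The 5 members with the largest time course losses included DDF1 and AT1G33760, both with the same AP2/ERF-type annotation as AT5G21960. DDF1 had 56 counts after 2 h JA and 154 in controls, and its log2 ratio, control over JA, was 1.44. AT1G33760 had 180 counts after 2 h JA and 472 in controls (1.38). AT4G13400 had 209 and 461 (1.13), the peroxidase gene AT5G64120 had 100 and 218 (1.11), and the ankyrin repeat gene AT2G24600 had 263 and 547 (1.04). Among these, the domain named after AT4G13400 was called a gain in the large-scale experiment. Its time course call, chr4:7785601-7787400, did not reach that gene at chr4:7787622-7791292, so the counts given for it lie outside the gene.

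**Figure D5:**
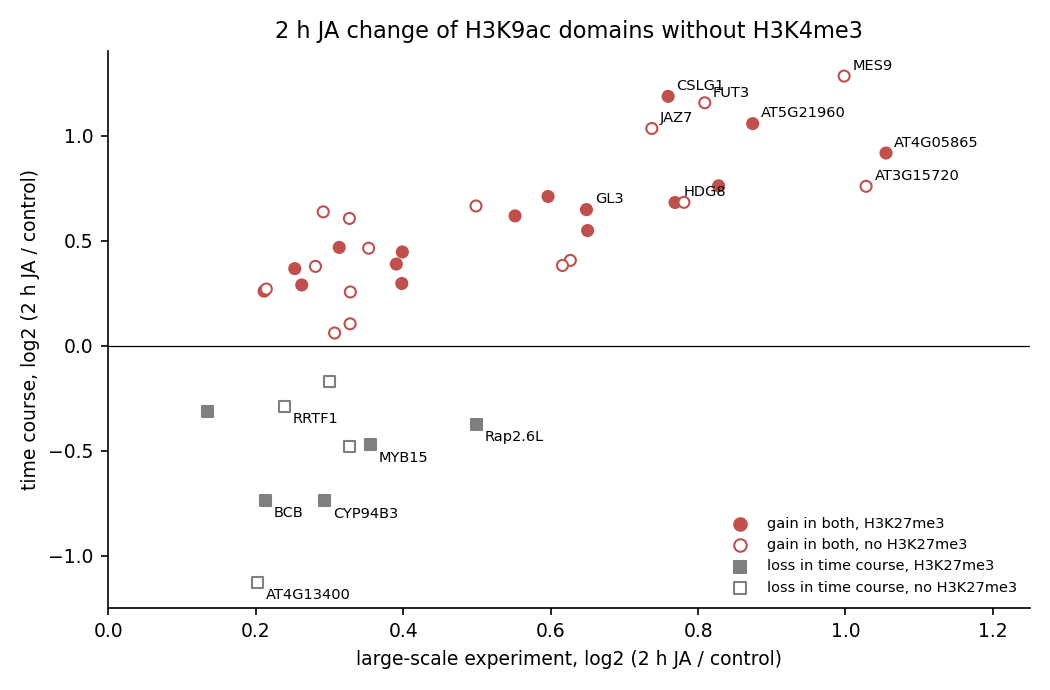
Log2 ratio of 2 h JA over control in the large-scale experiment (x axis) and in the time course (y axis) for domains without H3K4me3 called in both; red circles are the 32 gains in both, grey squares the 9 gains with a time course loss, and filled symbols have H3K27me3. MES9 has the highest time course ratio (1.28) and AT4G13400 the lowest.

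A MYC2 summit lay in 19 of the 440 domains (4.32%, 95% Wilson interval 2.78 to 6.65), against 6.54% of the domains with H3K4me3. At widths of at most 1000 bp, 3 of 271 domains without H3K4me3 held a summit (1.11%), close to the 1.30% with it. H3K27me3 was present in 11 of the 19 (57.9%, 95% Wilson interval 36.3 to 76.9), an interval that includes the 46.6% of all 440 domains. Among the 905 domains with H3K4me3 and a summit it was 20.7%. Of the 19, 9 held a protein-coding start (47.4%, against 81.8% of the 905) and 4 were in no regular list (21.1%, against 0%). A large-scale gain touched 10 (52.6%, against 36.2% of the 905). The order was the other way for time course gains, with 7 of 19 (36.8%) against 43.0%, and for gains in both experiments, with 4 (21.1%) against 25.1%. A G-box within 50 bp of the summit was found at 9 of 23 summits (39.1%, 95% Wilson interval 22.2 to 59.2), against 272 of 1058 in domains with H3K4me3 (25.7%) and 947 of all 3464 (27.3%). A match to CACGTG, which reads the same on both strands, describes the sequence and is no proof of a site.

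The 10 members with the highest MYC2 fold were Rap2.6L (4.55), AT1G54010 (3.74), AT5G54710 (3.71), AT1G31710 (3.55), TBL41 (3.15), ABCG42 (3.03), BCB (3.02), AT3G00450 (2.85), AT4G05865 (2.82) and RRTF1 (2.63). Rap2.6L, an ERF transcription factor, had little H3K9ac in untreated seedlings, at 0.27, 0.59 and 0.73 in PHILO libraries and 0.13 in the second regular library, and no regular domain in the first. AT1G54010, annotated as a GDSL lipase, held 4 summits and had 563 counts after 2 h JA and 426 in controls in the large-scale experiment (log2 ratio 0.48). RRTF1, an ERF transcription factor responsive to redox changes, held 2 summits, with the G-box in the RRTF1 window above. The domain in BCB, which encodes a blue copper-binding protein, had both H3K27me3 and H3K36me3.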

How the data were processed

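Reads had been aligned to TAIR10 and domains and peaks called by the authors, with epic2, an implementation of SICER, for domains. The submitters' processing notes name Bowtie2 2.4.1, SICER 0.0.52, MACS2 2.2.7.1 and deepTools 3.5.2. The deposited H3K9ac lists hold ChIP and IgG counts per domain in 200-bp steps, p-values with an FDR, and log2 ratios after scaling to totals, which were recomputed here from the counts. The deposited JA lists hold counts of JA-treated and control reads with the same statistics, and the ratios printed are recomputed from those counts. In the MYC2 file the authors give a fold enrichment ratio and −log10 q-values per summit. The fold changes in the pooled lists are not the result of a replicate test.

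Overlap meant 1 bp or more. Genes, starts and sequences came from RefSeq TAIR10.1, in which 0 domains passed a chromosome end. The edgeR 4.0.16 test (R 4.3.3) used the counts of 1167 domains whose coordinates agreed across the 5 libraries, after a check on simulated data, and DESeq2 1.42.0 was the alternative. The study calls the replicates biological, but the labels do not say that they came from separate cultures, so p-values measure only the spread between these samples. Python 3.11.15, pandas 2.3.3, scipy 1.17.1 and blastn 2.17.0 (similarity to organelle genomes) were used. The members and gene lists were chosen with earlier results of these data known.

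The domains named are the 10 highest in regular libraries, the 5 widest with those tied, the 10 with the highest large-scale JA ratio among gains in both experiments, the 10 with the highest MYC2 fold, the 5 largest time course losses, and genes of the lists. Alternatives changed the overlap, fold, FDR, width, replicate list, scaling and tool, and left out single libraries. Other groups of the series were not used here.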

Additional observations from a re-analysis of the deposited data

Results flagged for a closer look

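In 9 of the 440 domains without H3K4me3, the direction of the called H3K9ac change after 2 h JA differed between the experiments. Each was touched by a gain in the large-scale experiment and a loss in the time course, and the called domains overlapped in all 9. Their extents can differ, as at RRTF1, with a gain over chr4:16447801-16454600 and a loss over chr4:16450401-16452600. A gain can thus include counts from outside the loss. At the domain nearest to FUT4 both calls had the same coordinates. The difference was not tested, since both lists are pooled. Of the 9, 4 held a MYC2 summit, AT4G13400, RRTF1, Rap2.6L and BCB. The summit in the AT4G13400 domain lay outside that gene, 111 bp upstream of the RTFL12 start, and the time course call there did not reach AT4G13400 either. The domain named after AT4G13400, annotated as an oxygenase, had a large-scale log2 ratio, JA over control, of 0.20. Its time course ratio, control over JA, was 1.13. CYP94B3, which hydroxylates JA-Ile, had 0.29 and 0.74 on the same scales. In counts, CYP94B3 had 496 after 2 h JA and 427 in controls in the large-scale experiment, and 232 after 2 h JA and 391 in controls in the time course. The transcription factor gene Rap2.6L had 0.50 and 0.38, MYB15 0.36 and 0.47, BCB 0.21 and 0.74, and RRTF1 0.24 and 0.29. AT1G58420 had 0.14 and 0.31, AT3G22750 had 0.30 and 0.17, and the domain nearest to FUT4 had 0.33 and 0.48. The same pair of calls was found in 144 of the 13828 domains with H3K4me3 (1.04%), against 2.05% of the 440.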

How the results depend on the processing

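The share of H3K27me3 stayed above and that of H3K36me3 below the share in domains with H3K4me3 in all 16 alternatives of each, with 40.5% and 5.68% where the mark had to cover at least 50% of a domain. Among these, a distance of at least 500 bp from H3K4me3 and the removal of organelle-like domains left the same 440 domains, so those alternatives could not differ. The number of domains was 230 with an H3K9ac log2 fold of at least 1 in the PHILO lists, 288 when both regular lists were also required, 271 at widths of at most 1000 bp, and 491 to 542 without one of the PHILO libraries. It was 559 when only H3K4me3 domains with a log2 fold of at least 1 counted, and 476 and 556 over rows of PHILO lists 2 and 3. Where the other PHILO lists had to cover at least 50% of the row it was 381. The share with a transcription start was 20.8% and 16.2% over rows of PHILO lists 2 and 3, 33.0% in both regular lists, 21.0% at up to 1000 bp, 35.9% with starts of all genes, and 20.2% to 25.4% without one of the PHILO libraries. The share in both regular lists was 71.6% over rows of PHILO list 3, 55.4% at up to 1000 bp, and 56.8% to 66.0% without one of the PHILO libraries. The share with a MYC2 summit was 2.36% (6.07% with H3K4me3) where the other PHILO lists had to cover at least 50% of the row. It was 2.17% (6.57%) at a log2 fold of at least 1. At up to 1000 bp it was 1.11%, close to the 1.30% with H3K4me3. Time course losses were 31.1% over rows of PHILO list 3, 33.3% in both regular lists, 21.4% at up to 1000 bp, 11.1% at a log2 ratio of at least 0.5 and 17.3% at an FDR of at most 0.001. At the same limits large-scale gains were 5.0% and 9.55%, and time course gains 4.55% and 9.55%, and at the ratio limit the time course gain share was above that with H3K4me3 (1.69%), the reverse of the order without the limit. The shares below a log2 fold of 1.5 and the fit with the regular libraries summed were chosen after seeing the data.

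Of the 15 domains tested with edgeR, 9 were called, against 3 with DESeq2, 3 with the regular libraries summed and 2 to 8 without one library (4 without the first regular library and 2 without the second). With replicate number as a block 7 were called, but same-numbered PHILO and regular libraries deviated with correlations of −0.036 and 0.016, so the numbers do not pair the samples. Relative to IgG totals, the log2 changes of AT2G45040, AT3G15720, AT4G15740, CSLG1 and AT5G24200 were 0.38, 0.30, 0.052, 0.26 and 0.18, opposite in sign to those with TMM.

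Pooled lists leave the H3K4me3, H3K27me3, H3K36me3, JA and MYC2 shares without replicate error. H3K4me3 below the limit of the call is not seen, and the weakest listed H3K4me3 domain had a log2 fold of 0.25.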
